A study of Homo sapiens with 2 samples.

Results

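The genes described here encode the subunits of the mitochondrial respiratory chain and ATP synthase that are carried by nuclear chromosomes. They were chosen by name. A gene was a member if its symbol began with NDUFA, NDUFB, NDUFC, NDUFS, NDUFV, UQCR, COX4, COX5, COX6, COX7, COX8 or ATP5, or was SDHA, SDHB, SDHC, SDHD or CYC1, and assembly factors, pseudogenes and hyphenated names were left out. This gave 88 of the 52402 gene symbols in the count tables, and 78 of the 88 were measured, that is, averaged 1 or more counts per 1000000 (CPM) over the libraries. RNA was sequenced from DLD1, a human colorectal adenocarcinoma line, in 1 library labelled HERV-R knockout and 1 control library labelled wild type. HERV-R is an endogenous retrovirus whose envelope gene is ERV3-1, and by its title the series asks how losing that gene bears on tumorigenic traits. The labels give both libraries the same treatment text, transfection with vectors for Cas9 and a guide RNA followed by hygromycin selection of colonies, and the sources used here do not say which vectors the control received or whether either library came from a single clone. Each group had 1 library, so the spread between replicates is unknown, and no test or p-value is given.

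The knockout-labelled library held 16406308 counts and the control 21881122. ERV3-1 had 125 counts (7.62 CPM) in the knockout-labelled library and 127 counts (5.80 CPM) in the control, so the count over the whole gene was not lower under the knockout label. Such a count does not see a small edit, and every direction given here rests on the label. Of 10 colon epithelial markers 7 were measured, among them EPCAM (750 and 701 CPM in the knockout-labelled and control libraries) and VIL1 (175 and 123 CPM). CDX2, a gut transcription factor, had 298 CPM in the knockout-labelled library and 99.4 CPM in the control, and the keratin KRT18 had 1741 and 4967 CPM, with KRT8 and KRT19 lower as well (2.21-fold and 2.44-fold). The part of these markers in the results was not tested. KRT20, whose symbol stands on 2 rows, and CDX1 had 0 counts in both. Of 16 markers of blood, stromal, endothelial, liver and muscle cells 1 was measured, ACTA2, with 5.79 CPM in the knockout-labelled library and 14.5 CPM in the control, and the summed level of the 16 was 7.19 and 16.5 CPM. The leukocyte marker PTPRC, also on 2 rows, and the fibroblast markers COL1A2, LUM and DCN had 0 counts in both libraries. The part of the row structure in the 0 counts of KRT20 and PTPRC was not tested. COL1A1 had 6 counts in the knockout-labelled library (0.366 CPM) and 24 in the control (1.10 CPM), lower with a counting interval of 1.19-fold to 8.97-fold. In bulk RNA, a change in the number of cells and a change in RNA per cell cannot be told apart.

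Oxidative phosphorylation passes electrons through 4 protein complexes of the inner mitochondrial membrane and uses the proton gradient they build to drive complex V, the ATP synthase. Complex I oxidises NADH, complex II (succinate dehydrogenase) feeds in electrons from the TCA cycle, complex III reduces cytochrome c, and complex IV (cytochrome c oxidase) hands the electrons to oxygen. Apart from complex II, which is wholly nuclear-encoded, each complex is built from subunits of both the nuclear and the mitochondrial genome. Colon epithelium and its tumours use this route together with glycolysis.

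Most subunit genes had slightly higher values in the knockout-labelled library, and none differed by 2-fold. The size rule asked for a 2-fold difference, a log2 ratio of knockout-labelled over control (1 CPM added to both) that reached 1 or -1. Of the 78 measured members 0 passed upward, 0 downward and 78 lay between. Of all 12644 measured genes, 6.78% passed upward and 5.69% downward. The median log2 ratio of the members was 0.26, beside 0.12 for all measured genes. The middle of the members' distribution, between the 25th and 75th percentiles, ran from 0.06 to 0.47, and that of all genes from -0.28 to 0.50, so the members lay closer together than genes at large. Their standard deviation was 0.32 on the log2 scale, against 0.68 for all genes. Among genes that averaged 50 CPM or more, 0 of 61 members passed in either direction, while 4.76% of all 4666 such genes passed upward and 3.66% downward. Above 0 stood 62 of the 78 members and 58.1% of all genes. The members took 0.986% of all counts in the knockout-labelled library and 0.845% in the control. The ratio of these sums was 1.17 (95% counting interval 1.16 to 1.17). Intervals here are exact and cover counting error only. They describe these libraries and not how other cultures would vary.

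**Figure D1:**
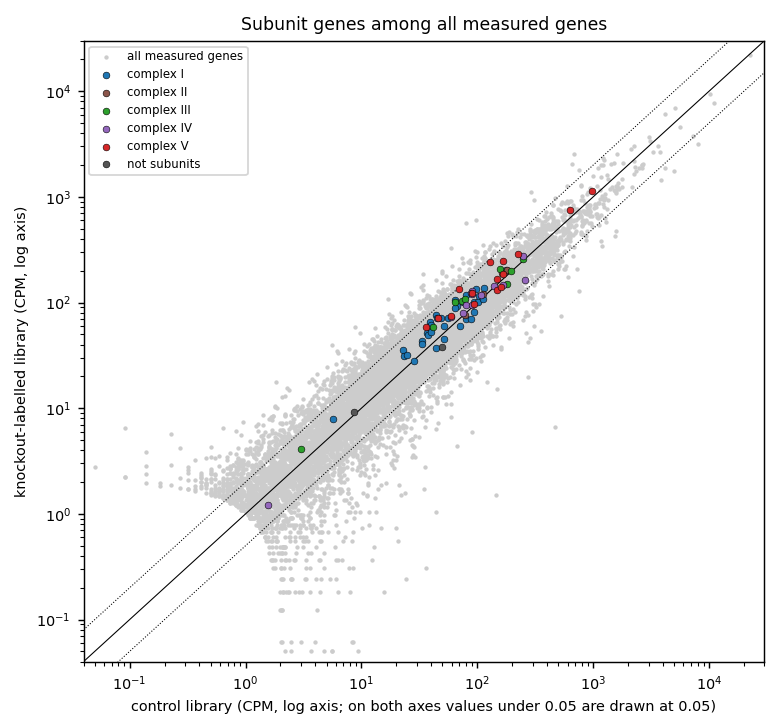
CPM of every measured gene in the control library (x axis, log) and the knockout-labelled library (y axis, log), with the members coloured by complex; the solid line marks equal values and the dotted lines a 2-fold difference. All 78 measured members lie between the dotted lines.

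At smaller sizes the members divided unevenly. At 1.5-fold 11 members were higher and 1 was lower, where 20.3% of all genes were higher and 13.2% lower. Members took shares of 14.1% and 1.28%, both under those of all genes. At a step of 5 to 4 (25% higher or 20% lower, 1 CPM added) 37 members were higher, 3 were lower and 38 lay between, beside 36.2% of all genes higher and 23.0% lower. The 3 lower members were COX7A2L, NDUFB8 and ATP5SL. These counts move with the scaling. The trimmed mean of M values (TMM) lowers every log2 ratio by about 0.12 and puts the median of all genes at 0.004. With TMM 24 of the 78 measured members were higher by this step and 6 lower, beside 29.2% and 29.4% of all genes, and 52 stood above 0. With the upper quartile 23 members were higher and 11 lower (27.9% and 30.6% of all genes), and with the median of gene ratios 17 and 11 (26.8% and 31.4%). The share of higher members was thus near that of all genes with TMM and the upper quartile. It was under that of all genes with the median of gene ratios. The share of lower members was under that of all genes with each of these scalings. At 1.5-fold the higher members numbered 5, 4 and 3 with these scalings in turn, beside 15.4%, 14.8% and 14.3% of all genes, and 1 was lower with each.

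Complex I, the entry point for NADH, had 35 of 37 members measured, with a median log2 ratio of 0.37. Of these 27 were above 0 and 8 below. The highest was NDUFB7, an accessory subunit of the membrane arm, with 1245 counts (75.9 CPM) in the knockout-labelled library and 962 counts (44.0 CPM) in the control, 1.73-fold higher (1.59 to 1.88). NDUFC2, also in the membrane arm, followed with 65.3 and 38.8 CPM (1.68-fold; 1.53 to 1.84), and NDUFB10 with 106 and 63.8 CPM (1.65-fold; 1.54 to 1.78). The exons of NDUFC2 overlap those of its read-through gene and of another gene on the opposite strand, so its count is less certain. The lowest was NDUFB8, again a membrane arm subunit, with 1142 counts (69.6 CPM) in the knockout-labelled library and 1923 (87.9 CPM) in the control, 1.26-fold lower (1.17 to 1.36). NDUFS4, an accessory subunit of the matrix arm, had 36.9 and 44.4 CPM (1.20-fold lower; 1.08 to 1.33). Genes of the same arm of the complex therefore stood at both ends of the range. Another 3 accessory genes were higher by 1.5-fold or more. NDUFS6, beside an iron-sulfur cluster of the matrix arm, had 71.1 CPM in the knockout-labelled library and 44.8 CPM in the control, NDUFB2 of the membrane arm 60.9 and 39.5 CPM, and NDUFA8 on the intermembrane side 35.4 and 23.0 CPM. NDUFAB1, the mitochondrial acyl carrier protein, which also serves lipoic acid synthesis, had 93.0 and 67.1 CPM (1.39-fold higher; 1.29 to 1.49). On the lower side were NDUFB5 with 59.5 and 70.9 CPM, NDUFB4 with 81.4 and 93.0 CPM, NDUFA5 with 69.7 and 79.9 CPM and NDUFA7 with 44.9 and 51.5 CPM, each lower by 1.14-fold to 1.19-fold with an interval that excluded 1.

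The 7 nuclear core subunits of complex I, which carry the flavin and iron-sulfur clusters or the quinone site, had log2 ratios from -0.05 to 0.55 and a median of 0.24. NDUFV1, which binds NADH and flavin, had the highest count of the complex, with 3305 counts (201 CPM) in the knockout-labelled library and 3885 (178 CPM) in the control. NDUFS3, in the part of the matrix arm that leads to the quinone site, had 71.9 and 48.7 CPM (1.48-fold higher; 1.36 to 1.61). NDUFV2, the partner of NDUFV1 in the flavin module, had 108 and 112.0 CPM, a ratio of 0.966 whose interval (0.908 to 1.03) included 1. The 28 measured accessory genes ran from -0.33 to 0.77, with a median of 0.37. NDUFS1, the core gene with the lowest count, had 129 and 124 counts. Its symbol stands on 2 rows of the tables, the other of which held 0 counts in both libraries.

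**Figure D2:**
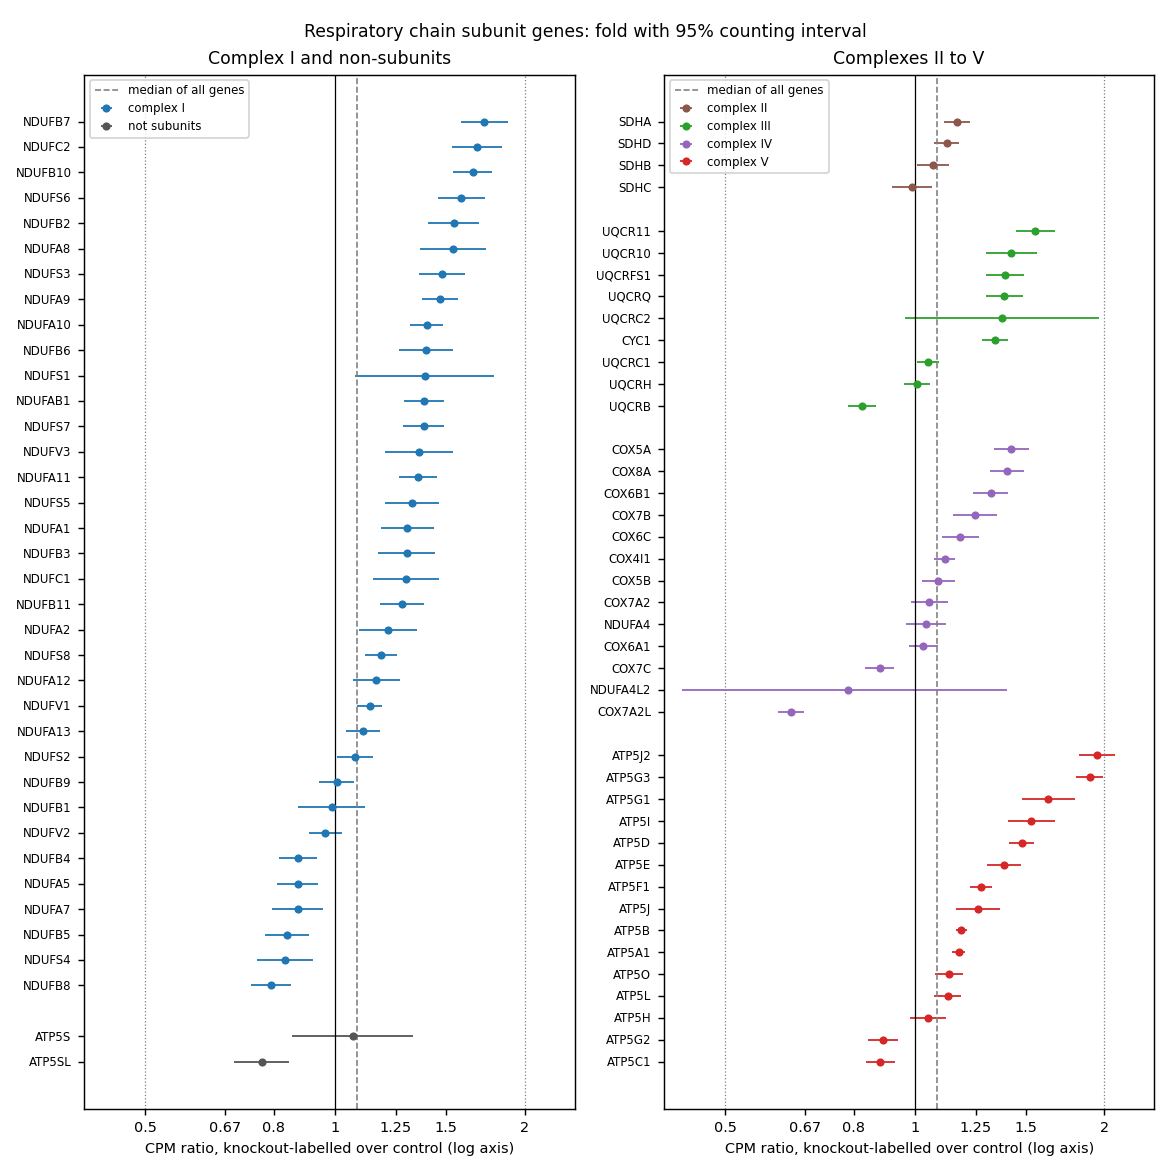
Ratio of CPM (knockout-labelled over control, no pseudocount, log axis) of each measured member with its 95% counting interval, by complex; the dashed line marks the median log2 ratio of all genes (0.12), the solid line equality and the dotted lines a 2-fold difference. Values run from COX7A2L (0.637) to ATP5J2 (1.94), and NDUFA4L2, UQCRC2 and NDUFS1 have the widest intervals among the members drawn because their counts are low.

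Complex II was nearly level between the libraries. SDHA, the flavoprotein that oxidises succinate, had 192 CPM in the knockout-labelled library and 165 CPM in the control (1.17-fold higher; 1.11 to 1.22). SDHB, the iron-sulfur subunit, had 120 and 112 CPM, and its membrane anchors SDHC and SDHD had 76.8 and 77.6 CPM and 202 and 180 CPM. The median log2 ratio of the 4 genes was 0.13, beside 0.12 for all genes, and it was 0.010 with TMM and -0.026 with scaling by the median of gene ratios. Of the 4 assembly factors of this complex, 3 were lower in the knockout-labelled library. SDHAF4 had 6.83 CPM in the knockout-labelled library and 14.4 CPM in the control (2.12-fold lower; 1.70 to 2.65), with a log2 ratio of -0.98 once 1 CPM was added. SDHAF1 had 12.9 and 21.3 CPM (1.66-fold lower; 1.41 to 1.96), SDHAF3 6.03 and 8.27 CPM, and SDHAF2, which helps attach flavin to SDHA, 29.1 and 27.2 CPM. The other scalings put SDHAF4 past the 2-fold rule.

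Complex III had 9 of 10 members measured and the highest median of the 5 complexes with library totals, 0.42, although this rests on few genes. By summed counts it was 1.14-fold higher, less than complexes I (1.20-fold) and V (1.23-fold) and more than complexes II (1.11-fold) and IV (1.05-fold). CYC1, the cytochrome c1 subunit, had 209 CPM in the knockout-labelled library and 155 CPM in the control, and UQCRFS1, the Rieske iron-sulfur protein, 103 and 74.0 CPM, so both redox subunits with nuclear genes were higher by similar folds (1.34 and 1.39). The small subunit UQCR11 was the highest, with 1644 counts (100.2 CPM) in the knockout-labelled library and 1411 (64.5 CPM) in the control (1.55-fold; 1.45 to 1.67), followed by UQCR10 with 58.9 and 41.4 CPM and UQCRQ, another small subunit, with 108 and 77.6 CPM. UQCRC1, a core subunit without a redox centre, had 259.8 and 247 CPM, the highest count of the complex, and its ratio was below 1 with each of the other scalings. UQCRB, a subunit near the quinone site, was the lowest with 150.3 and 182 CPM (1.21-fold lower; 1.15 to 1.27), and UQCRH had 197 and 195 CPM. UQCRC2, the partner of UQCRC1, had only 68 and 66 counts. It stands on 2 rows of the tables, which held 64 and 4 counts in the knockout-labelled library and 49 and 17 in the control, so its value is uncertain.

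Complex IV lay close to the median of all genes. Of 13 measured members 10 were above 0 and 3 below, with a median of 0.12, and with TMM the median was 0.002. Its 11 ubiquitous subunits had 10 above 0 and 1 below, with a median of 0.16. The others below 0 were COX7A2L and NDUFA4L2. COX5A, a subunit on the matrix side, was the highest with 127 CPM in the knockout-labelled library and 89.3 CPM in the control (1.42-fold; 1.34 to 1.52). COX8A had 124 and 88.2 CPM (1.40-fold; 1.32 to 1.49) and COX6B1, which faces the intermembrane space, 120 and 90.6 CPM. COX4I1, a regulatory subunit that binds ATP, had 275 and 247 CPM. Other subunits with higher values were COX7B (73.4 and 58.9 CPM), COX6C (94.96 and 80.4 CPM) and the zinc-binding COX5B (117 and 107 CPM). COX7C was lower, with 146 and 166 CPM (1.14-fold lower; 1.08 to 1.20). COX6A1 (145 and 140 CPM), COX7A2 (94.0 and 89.2 CPM) and NDUFA4 (79.1 and 75.8 CPM) had intervals of the ratio that included 1. NDUFA4 is named for complex I but its protein belongs to complex IV, where it is counted here.

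COX7A2L stood apart from every other member on the low side. Its protein resembles the COX7A subunits and helps join complexes III and IV into supercomplexes. It had 2672 counts (163 CPM) in the knockout-labelled library and 5598 (256 CPM) in the control, a ratio of 0.637 (0.608 to 0.667) or 1.57-fold lower, with a log2 ratio of -0.65. It was the only member lower by at least 1.5-fold, a size that 13.2% of all genes reached. ATP5SL, next with -0.38, had 38.1 CPM in the knockout-labelled library and 49.8 CPM in the control. ATP5SL and ATP5S carry the prefix of the ATP synthase genes without encoding subunits of it. ATP5S had 9.26 and 8.68 CPM.

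The isoform genes of complex IV that are restricted to muscle, lung, testis or low oxygen were nearly silent in both libraries. COX6A2, COX7A1, COX7B2 and COX8C had 0 counts in each library, and so did ATP5L2, a relative of the complex V gene ATP5L. A count of 0 leaves room for 3 counts, or 0.183 CPM in the knockout-labelled library and 0.137 CPM in the control. COX4I2 had 1 count in the knockout-labelled library and 0 in the control, COX6B2 had 1 and 2, and UQCRHL, an intronless relative of UQCRH, had 3 and 1. NDUFA4L2, a relative of NDUFA4 known to be induced by hypoxia, was measured with 20 and 34 counts (1.22 and 1.55 CPM), a ratio whose interval (0.428 to 1.40) included 1. Exons of NDUFA4L2 overlap those of SHMT2 on the opposite strand, and the part of that gene in these few counts was not tested. NDUFA3 (7 and 8 counts) and NDUFA6 (17 and 15 counts), both ubiquitous complex I genes, were also below the 1 CPM minimum. Their symbols stand on 10 and 5 rows of the tables, with all counts on 1 row each, and the part of this row structure in their low counts was not tested. NDUFA10, on 2 rows, kept 2213 and 2112 counts on 1 of them.

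Complex V held the highest ratios among the members. ATP5J2, a small membrane subunit of the ATP synthase, had 2225 counts (136 CPM) in the knockout-labelled library and 1527 (69.8 CPM) in the control. It was 1.94-fold higher (1.82 to 2.08), with a log2 ratio of 0.95 that lay just under the rule. ATP5J2 shares exons with a read-through gene on the same strand. Of the 15 measured members 13 were above 0, with a median of 0.33. The catalytic head was closer to level. ATP5B, the catalytic beta subunit and the member with the most counts, had 1147 CPM in the knockout-labelled library and 968 CPM in the control (1.19-fold; 1.16 to 1.21), and its alpha partner ATP5A1 had 746 and 635 CPM (1.17-fold; 1.15 to 1.20). ATP5D, the delta subunit of the central stalk, had 246 and 166 CPM (1.48-fold; 1.41 to 1.55). ATP5C1, the gamma subunit that turns inside the head, had 140 and 158 CPM and was lower by 1.13-fold (1.08 to 1.20). Subunits of the same F1 part thus lay on both sides of equality. In the stalk and membrane part, ATP5I, a small subunit at the interface of ATP synthase dimers, had 70.7 CPM in the knockout-labelled library and 46.2 CPM in the control (1.53-fold higher; 1.41 to 1.67). ATP5F1, the b subunit of the side stalk, had 286 and 224 CPM (1.27-fold; 1.22 to 1.33), ATP5O, which caps that stalk, 168 and 148 CPM, and ATP5H, its d subunit, 97.7 and 93.0 CPM. ATP5J, also of the side stalk, had 74.1 and 58.8 CPM (1.26-fold; 1.16 to 1.36), and the small membrane subunit ATP5L 186 and 165 CPM (1.13-fold; 1.07 to 1.18). Neither the stalk nor the small membrane genes kept to 1 size of difference.

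The 3 genes of the c subunit, which forms the rotating membrane ring, differed in direction although they encode the same mature protein behind different import sequences. ATP5G3 had 3989 counts (243 CPM) in the knockout-labelled library and 2807 (128 CPM) in the control (1.90-fold higher; 1.81 to 1.99). ATP5G1 had 58.8 and 36.1 CPM (1.63-fold higher; 1.48 to 1.79). ATP5G2 had 133 and 149 CPM and was 1.12-fold lower (1.06 to 1.18). Of the counts of all 3 genes, ATP5G3 took 55.9% (54.8 to 57.1) in the knockout-labelled library and 41.0% (39.8 to 42.1) in the control, and ATP5G2 took 30.5% (29.5 to 31.6) and 47.5% (46.3 to 48.7). The largest share thus belonged to ATP5G3 in the knockout-labelled library and to ATP5G2 in the control. ATP5G1 held 13.5% (12.7 to 14.3) and 11.5% (10.8 to 12.3). Counts were not corrected for transcript length, so these shares compare libraries and not molecules of each gene. The sum of the 3 genes was 435 CPM in the knockout-labelled library and 313 CPM in the control. The order of the shares does not depend on the scaling.

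**Figure D3:**
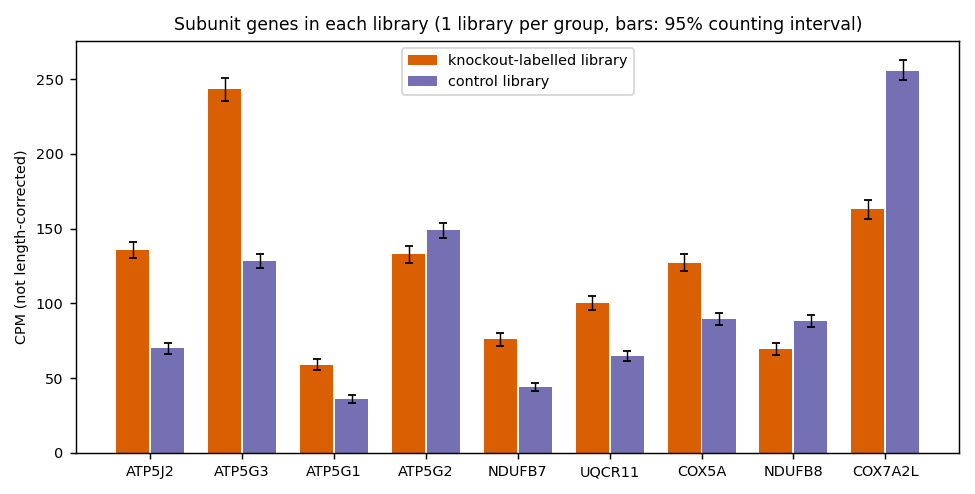
CPM of 9 members in the knockout-labelled library (left bars) and the control library (right bars), 1 library each, with exact 95% counting intervals of each count. ATP5G3 and ATP5G1 are higher in the knockout-labelled library and ATP5G2 is lower, and COX7A2L shows the opposite order to ATP5J2.

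Since c subunit genes differ in their control regions and not in the mature protein, promoter windows are shown for ATP5G1 and ATP5G2, together with those of COX7A2L, the lowest member, and UQCR11, the highest of complex III. Each window runs from 250 bases before to 50 bases after the first transcription start that RefSeq lists for the gene (GRCh38.p14). Other starts are listed for ATP5G2 and COX7A2L. Capitals mark matches, on either strand, to the letters searched: GCGCA, any base and GCGC for NRF1, CCGGAAG for ETS factors such as GABPA, AAGATGGC for YY1, and the E-box CACGTG. No match overlapped another. NRF1 and GABPA are activators long known at respiratory chain genes.
UQCR11 (chr19:1605413-1605712, minus strand): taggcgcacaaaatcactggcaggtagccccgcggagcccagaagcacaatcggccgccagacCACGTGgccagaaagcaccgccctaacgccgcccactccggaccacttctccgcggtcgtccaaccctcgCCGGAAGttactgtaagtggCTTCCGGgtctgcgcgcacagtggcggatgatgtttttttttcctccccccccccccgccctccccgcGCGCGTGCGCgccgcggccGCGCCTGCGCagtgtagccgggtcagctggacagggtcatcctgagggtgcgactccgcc
ATP5G1 (chr17:48892537-48892836, plus strand): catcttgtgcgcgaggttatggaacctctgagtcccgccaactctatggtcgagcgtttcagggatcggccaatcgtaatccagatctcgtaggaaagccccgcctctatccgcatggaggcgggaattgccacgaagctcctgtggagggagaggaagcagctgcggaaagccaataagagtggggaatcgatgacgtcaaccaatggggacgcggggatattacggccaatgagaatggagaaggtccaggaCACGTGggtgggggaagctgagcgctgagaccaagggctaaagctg
ATP5G2 (chr12:53676034-53676333, minus strand): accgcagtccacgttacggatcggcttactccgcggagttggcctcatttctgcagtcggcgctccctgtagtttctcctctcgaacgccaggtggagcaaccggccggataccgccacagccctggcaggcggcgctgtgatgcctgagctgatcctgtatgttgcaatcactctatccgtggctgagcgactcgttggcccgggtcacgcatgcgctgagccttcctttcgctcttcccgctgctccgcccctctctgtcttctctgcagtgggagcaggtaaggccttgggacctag
COX7A2L (chr2:42361168-42361467, minus strand): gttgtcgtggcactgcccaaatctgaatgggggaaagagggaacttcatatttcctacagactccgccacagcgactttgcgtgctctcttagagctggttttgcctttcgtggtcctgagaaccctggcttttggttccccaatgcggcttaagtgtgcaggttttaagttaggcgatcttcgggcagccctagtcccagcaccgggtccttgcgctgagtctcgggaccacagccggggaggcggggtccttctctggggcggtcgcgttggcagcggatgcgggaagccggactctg

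The UQCR11 window held NRF1 letters at bases 222 to 231 and 241 to 250, ETS letters at bases 134 to 140 and 154 to 160 and an E-box at bases 64 to 69, counted from 1 at its 5′ end. The ATP5G1 window held an E-box at bases 255 to 260. The windows of ATP5G2 and COX7A2L, inside their genes, held none of these 4 kinds of match. The upstream ends of these genes were not searched. GC boxes are not capitalised. These 4 windows do not stand for the members as a whole. Windows of the higher members NDUFB10, NDUFS6 and COX5A held none of the 4 kinds. Among lower members, those of ATP5C1 and NDUFB4 held NRF1 letters, and that of NDUFA7 held YY1 letters and an E-box. A window was found for 70 of the 88 members, and ATP5G3 and ATP5J2 were among the 18 without an entry. NRF1 letters stood in 16 of the 70 (22.9%), beside 6.28% of the windows of all 27305 genes listed and 12.2% of those of 9816 measured genes. ETS letters stood in 19 (27.1%, beside 10.7% of all and 1968 of the 9816 measured), YY1 letters in 11 (15.7%, beside 3.03% and 5.65%) and the E-box in 7 (10.0%, beside 7.43% and 10.2%). The GC box GGGCGG, searched in the same way, stood in 39 (55.7%, beside 44.6% and 70.9%). Members with NRF1 letters had a median log2 ratio of 0.33 (14 measured genes) and members without had 0.29 (50 genes). For ETS letters the medians were 0.33 (19 genes) and 0.27 (45 genes), for YY1 letters 0.18 (9 genes) and 0.31 (55 genes), and for the E-box 0.46 (7 genes) and 0.23 (57 genes). For the GC box they were 0.35 (37 genes) and 0.22 (27 genes). A match of letters is a description and does not show that a factor binds there.

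The 13 subunits encoded in mitochondrial DNA, partners of the nuclear subunits in complexes I, III, IV and V, had a median log2 ratio of 0.55. Of them 1 passed the 2-fold rule upward and 0 downward, beside 6.78% and 5.69% of all measured genes. It was CYTB, the cytochrome b of complex III, with 2040 CPM in the knockout-labelled library and 658 CPM in the control. All 13 were above 0 with library totals. Their summed counts were 3.40 times those of the nuclear members in the knockout-labelled library and 2.73 times in the control. Both sums were larger in the knockout-labelled library, the mitochondrial sum by 1.46-fold (1.45 to 1.46) and the nuclear sum by 1.17-fold.

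Among 50 assembly factors, the chaperones that insert cofactors and join subunits, 49 were measured, with a median of 0.22. Of these 2 passed the rule upward and 0 downward, beside 6.78% and 5.69% of all measured genes. COA7, a factor for complex IV, had 787 counts in the knockout-labelled library and 474 in the control (2.21-fold; 1.97 to 2.49). BCS1L, which installs the Rieske protein in complex III, had 30.8 and 14.3 CPM (2.15-fold; 1.87 to 2.49). With TMM 0 passed upward (COA7 at 0.99, BCS1L at 0.94) and 1 downward, SDHAF4. Around BCS1L the factors of complex III were divided. LYRM7, which holds the Rieske protein before that step, had 80.0 and 44.0 CPM and UQCC3 27.2 and 14.4 CPM, while UQCC2 had 21.8 and 33.5 CPM and TTC19 111 and 168 CPM. SURF1, a complex IV factor on 2 rows of the tables, had 0 counts in the knockout-labelled library and 1 in the control.

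The 16 regulators of mitochondrial biogenesis were all measured, with a median of 0.26. Of them 2 passed the rule upward and 0 downward, beside 6.78% and 5.69% of all measured genes. Both were coactivators of the PGC-1 family, which act with NRF1 and ERR-alpha. PPRC1, also of that family, did not pass, with 85.9 CPM in the knockout-labelled library and 62.7 CPM in the control (1.37-fold higher; 1.27 to 1.48). PPARGC1A had 140 counts (8.53 CPM) in the knockout-labelled library and 48 (2.19 CPM) in the control, 3.89-fold higher (2.78 to 5.52). PPARGC1B had 298 counts (18.2 CPM) and 184 counts (8.41 CPM), 2.16-fold higher (1.79 to 2.61). The counts are low. With a pseudocount of 5 CPM neither passed (0.91 and 0.79), and with TMM PPARGC1B was at 0.91 while PPARGC1A stood at 1.48. The DNA-binding partners lay closer to equality than PPARGC1A and PPARGC1B. NRF1 had 27.9 and 21.0 CPM (1.33-fold higher; 1.16 to 1.51), GABPA 47.5 and 48.7 CPM and ESRRA 101 and 95.3 CPM. TFAM, which packages mitochondrial DNA and helps start its transcription, had 111 and 80.6 CPM (1.38-fold; 1.29 to 1.47). POLRMT, the polymerase that transcribes it, had 124 and 123 CPM (1.01-fold; 0.949 to 1.07).

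**Figure D4:**
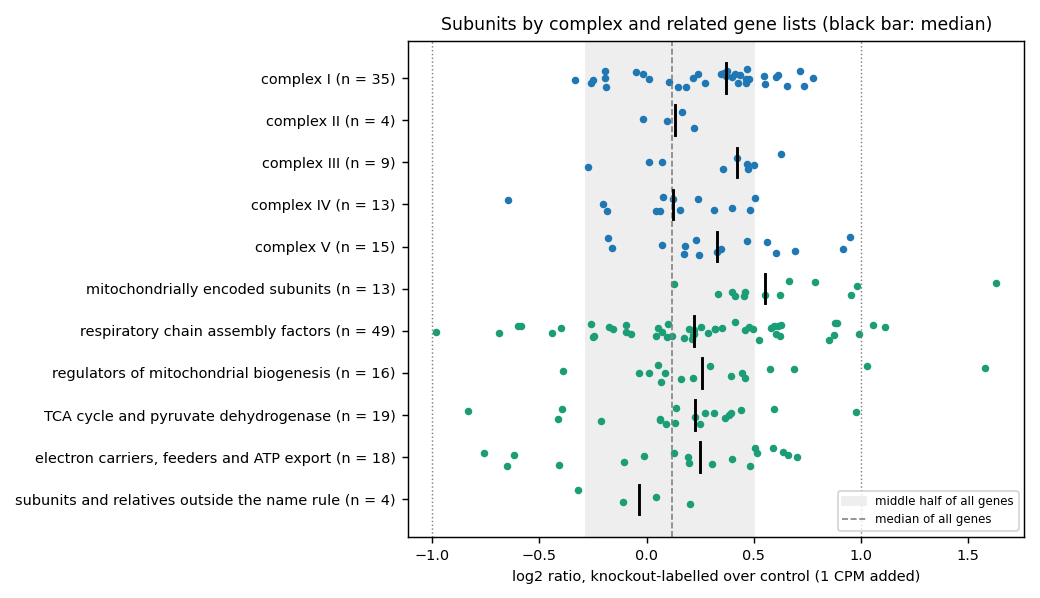
Log2 ratio (knockout-labelled over control, 1 CPM added, x axis) of each measured member by complex and of each measured gene of the related lists (green), with members in blue; black bars mark medians, the grey band the range from the 25th to the 75th percentile of all genes, the dashed line their median and the dotted lines the 2-fold rule. Genes past the rule are CYTB, COA7, BCS1L, PPARGC1A and PPARGC1B, and none is a nuclear subunit gene.

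Transcript length, position and overlap were set beside the log2 ratio. Subunit transcripts are short. Of the 78 measured members 37 had a median GENCODE transcript length of up to 750 bases, and their median log2 ratio was 0.27, beside 0.06 for the 374 measured genes of that length. The 14 members of 750 to 1000 bases had 0.37, beside 0.07. From 1000 to 2000 bases the 18 members had 0.14, beside 0.10, and from 2000 to 5000 bases the 9 members had 0.41, beside 0.11. On chromosome 10 the median of 479 measured genes was -0.17, the lowest of the autosomes, and both members located there were lower in the knockout-labelled library, NDUFB8 (-0.33) and ATP5C1 (-0.18). On chromosome 17, the next lowest autosome at -0.04, the 2 members had a median of 0.38. On chromosome 3 the 3 members had a median of -0.19, beside 0.08 for its 720 measured genes. The part of the chromosome in these values was not tested. Exons of 36 measured members overlap those of another gene in GENCODE release 29. Of these, 24 have an overlap on the opposite strand and 18 on the same strand, some on both. Same-strand overlaps involved ATP5J2, ATP5L, ATP5O, COX6A1, COX7C, COX8A, NDUFA7, NDUFA9, NDUFA11, NDUFA13, NDUFB2, NDUFB8, NDUFC2, NDUFS1, NDUFV1, NDUFV2, SDHD and UQCR11. Opposite-strand overlaps included SDHC, SDHD, UQCRQ, ATP5G3 and NDUFA4L2. The part of these overlaps in the counts was not tested. Whether counting used the strand of the reads was not stated in the sources used here. The 164 pseudogene names left out held 109 counts in the knockout-labelled library and 123 in the control, against 161735 and 184849 counts on the members.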

How the data were processed

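RNA from DLD1 cells was sequenced in 1 knockout-labelled and 1 control library. The authors deposited raw counts per gene row, with no normalization. Reads were aligned with TopHat to GRCh38, per the submitters' processing notes. The aligner's version, counting program, annotation and strand setting were not stated in the sources used here. Both tables have 58173 rows, and rows of a symbol were summed to 52402 symbols. Reads of genes with near-identical copies can be lost or split in counting.

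Counts were scaled by library total to CPM. Genes averaging 1 CPM or more were called measured (12644), and the log2 ratio used a pseudocount of 1 CPM. Folds divide CPM with no pseudocount, and their 95% intervals are exact (Clopper-Pearson on a library's share of the gene's counts; scipy 1.17.1). PCR duplicates are not independent molecules, so intervals and floors cover counting error only. The procedure was tested on simulated data. The other scalings were TMM (edgeR 4.0.16), the upper quartile and the median of gene ratios. Gene names, positions and promoters came from RefSeq tables (GRCh38.p14), matching all 88 members, and transcript lengths and overlaps from GENCODE release 29.

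Members and lists were chosen with earlier results of these data known. Named by rule were members past 2-fold, the 2 highest, the 2 lowest and the highest-count member of each complex, isoform families, unmeasured members, and in each related list the genes past 2-fold or the 2 with most counts. Other genes were chosen after their values were seen. The pseudogene names COX8BP and ATP5J2LP, which end in P without digits, were also left out.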

Additional observations from a re-analysis of the deposited data

How the results depend on the processing

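The counts of 0 members past 2-fold in either direction were the same under every pseudocount, scaling and filter tried and with symbols on 1 row only. No p-value at any level could be computed with 1 library per group. The size rule alone changed them, to 11 higher and 1 lower at 1.5-fold and 37 and 3 at a step of 5 to 4. For the members as a whole and for each complex, the scalings moved the medians more than the other choices did. A minimum mean of 50 CPM moved the median of the assembly factors to 0.07 and that of the regulators to 0.12, against 0.10 and 0.14 with TMM. The members' median log2 ratio of 0.26 became 0.14 with TMM, 0.12 with the upper quartile and 0.10 with the median of gene ratios, while that of all genes became 0.004, -0.01 and -0.03. It was 0.24 with a pseudocount of 5, with no filter, with a minimum mean of 50 CPM and with symbols on 1 row only. In the same order of scalings, complex I had 0.25, 0.23 and 0.21, complex II 0.010, -0.0096 and -0.026, complex III 0.30, 0.28 and 0.26, complex IV 0.0022, -0.018 and -0.034, and complex V 0.21, 0.19 and 0.17. Complex I had 0.33 with a pseudocount of 5 and 0.35 with a minimum of 50 CPM, complex V 0.31 and 0.29. With no filter complex III had 0.39 and complex IV 0.085. With TMM 10 members changed sign, with the upper quartile 11 and with the median of gene ratios 13, all of them between 0 and 0.16 with library totals. SDHB, UQCRC1, UQCRH, COX6A1, COX7A2, NDUFA4 and ATP5H changed sign with each of the 3. Higher genes made up 54.4% of all genes past 2-fold with library totals (857 against 719) and 40.6%, 38.5% and 36.5% with these scalings. A pseudocount of 5 left 426 higher and 371 lower, and the median of gene ratios 544 higher. No paired analysis was possible because each group has 1 library. Depth limits the members with low counts, such as NDUFA4L2 and UQCRC2, and the lack of replicates limits all.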

Other observations

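Enzymes that supply the chain with electrons were measured alongside the subunits. Of 19 genes of the TCA cycle and pyruvate dehydrogenase, all measured, 0 passed the 2-fold rule in either direction, and the median log2 ratio was 0.22. Among all measured genes 6.78% passed upward and 5.69% downward, shares that also stand beside the lists below. Citrate synthase (CS) had 401 CPM in the knockout-labelled library and 365 CPM in the control, and MDH2 had 399 and 364 CPM. DLAT, the acetyltransferase of pyruvate dehydrogenase, was nearest to the rule, with 239.7 and 121 CPM (1.97-fold higher; 1.88 to 2.07). On the other side SUCLG2, the GDP-linked beta subunit of succinyl-CoA ligase, had 76.0 and 136 CPM (1.79-fold lower; 1.68 to 1.92), and SUCLA2, its ADP-linked counterpart, had 134 and 179 CPM.

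Of 19 genes for electron carriers, dehydrogenases that feed ubiquinone, coenzyme Q synthesis, phosphate import and ATP export, 18 were measured and 0 passed in either direction, with a median of 0.25. The genes with the most counts were SLC25A3, the phosphate carrier, with 594 CPM in the knockout-labelled library and 481 CPM in the control, and SLC25A5, an ADP/ATP exchanger, with 497 and 433 CPM. Cytochrome c (CYCS), which carries electrons between complexes III and IV, had 427 and 269.5 CPM (1.58-fold higher; 1.53 to 1.64). ETFA, which carries electrons from fatty acid oxidation, had 165 and 254 CPM (1.54-fold lower; 1.47 to 1.61), and SQRDL, the sulfide oxidoreductase, had 32.9 and 56.3 CPM (1.71-fold lower; 1.55 to 1.90). The carrier SLC25A6, on 2 rows of the tables, had 0 counts in both libraries.

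A further 4 subunits or relatives carry symbols outside the name rule, and 0 of the 4 passed. ATPIF1, the inhibitor of the ATP synthase, had 159 CPM in the knockout-labelled library and 138 CPM in the control, and USMG5, a small membrane subunit of complex V, had 84.8 and 91.7 CPM.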
